A study of Mus musculus with 15 samples.

Results

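The genes described here are 10 genes of steroid and peptide hormone production in Leydig cells, the interstitial cells of the testis. They were Star, Cyp11a1, Cyp17a1, Hsd3b1, Hsd3b6, Hsd17b3, Insl3, Lhcgr, Scarb1 and Fdx1, chosen by name and matched to the expression table by their Entrez gene IDs. All 10 were found among the 23510 gene IDs of the table, and all 10 were among the 14514 genes that passed the filter on low values (a mean of at least 1 FPKM over all libraries) and were tested.

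RNA from whole testes of ICR mice was sequenced in 15 libraries, 3 in each of 5 groups. Testes were injected at 5 weeks of age with lentivirus that carried a mixture of 3 short hairpin RNAs against 1 muscarinic acetylcholine receptor gene, and were taken 10 days later. M1 received hairpins against Chrm1, M3 against Chrm3 and M5 against Chrm5, and MNC received the vector control. Con was labelled as a control without further detail, and its age is not given in the sources used here. The virus was injected into the whole testis and was not directed to 1 cell type. Nothing in the labels says whether the 3 libraries of a group came from separate animals, so the p-values below measure the spread between these libraries.

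Leydig cells make testosterone from cholesterol under the control of luteinizing hormone from the pituitary. The hormone binds its receptor LHCGR, and the cyclic AMP that follows turns on the transfer of cholesterol into mitochondria and the expression of the enzymes. SCARB1 takes up cholesterol from lipoproteins, and STAR carries it to the inner mitochondrial membrane. CYP11A1 cuts its side chain with electrons passed on by the iron-sulphur protein ferredoxin, the product of Fdx1. The HSD3B enzymes, CYP17A1 and HSD17B3 then lead to testosterone. INSL3 is a peptide hormone made by the same cells and is a standard measure of Leydig cell number and maturity.

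All values are FPKM, fragments scaled to the length of the gene and to the mapped total of the library, so levels can be set side by side between genes. Insl3 had the highest mean over the 15 libraries, 1254 FPKM, and ranked 19 of all genes in Con. It was followed by Cyp17a1 at 205 FPKM, Cyp11a1 at 118 FPKM, Hsd3b1 at 75.2 FPKM, Scarb1 at 49.7 FPKM, Fdx1 at 31.2 FPKM, Hsd17b3 at 26.4 FPKM, Star at 24.4 FPKM and Hsd3b6 at 22.5 FPKM. Lhcgr was the lowest at 6.07 FPKM. Insl3 was above the other 9 genes in every library. From Cyp17a1 downwards, each gene's range over the libraries overlapped that of its neighbours in this order. The plot of the levels has every library of each gene.

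**Figure D1:**
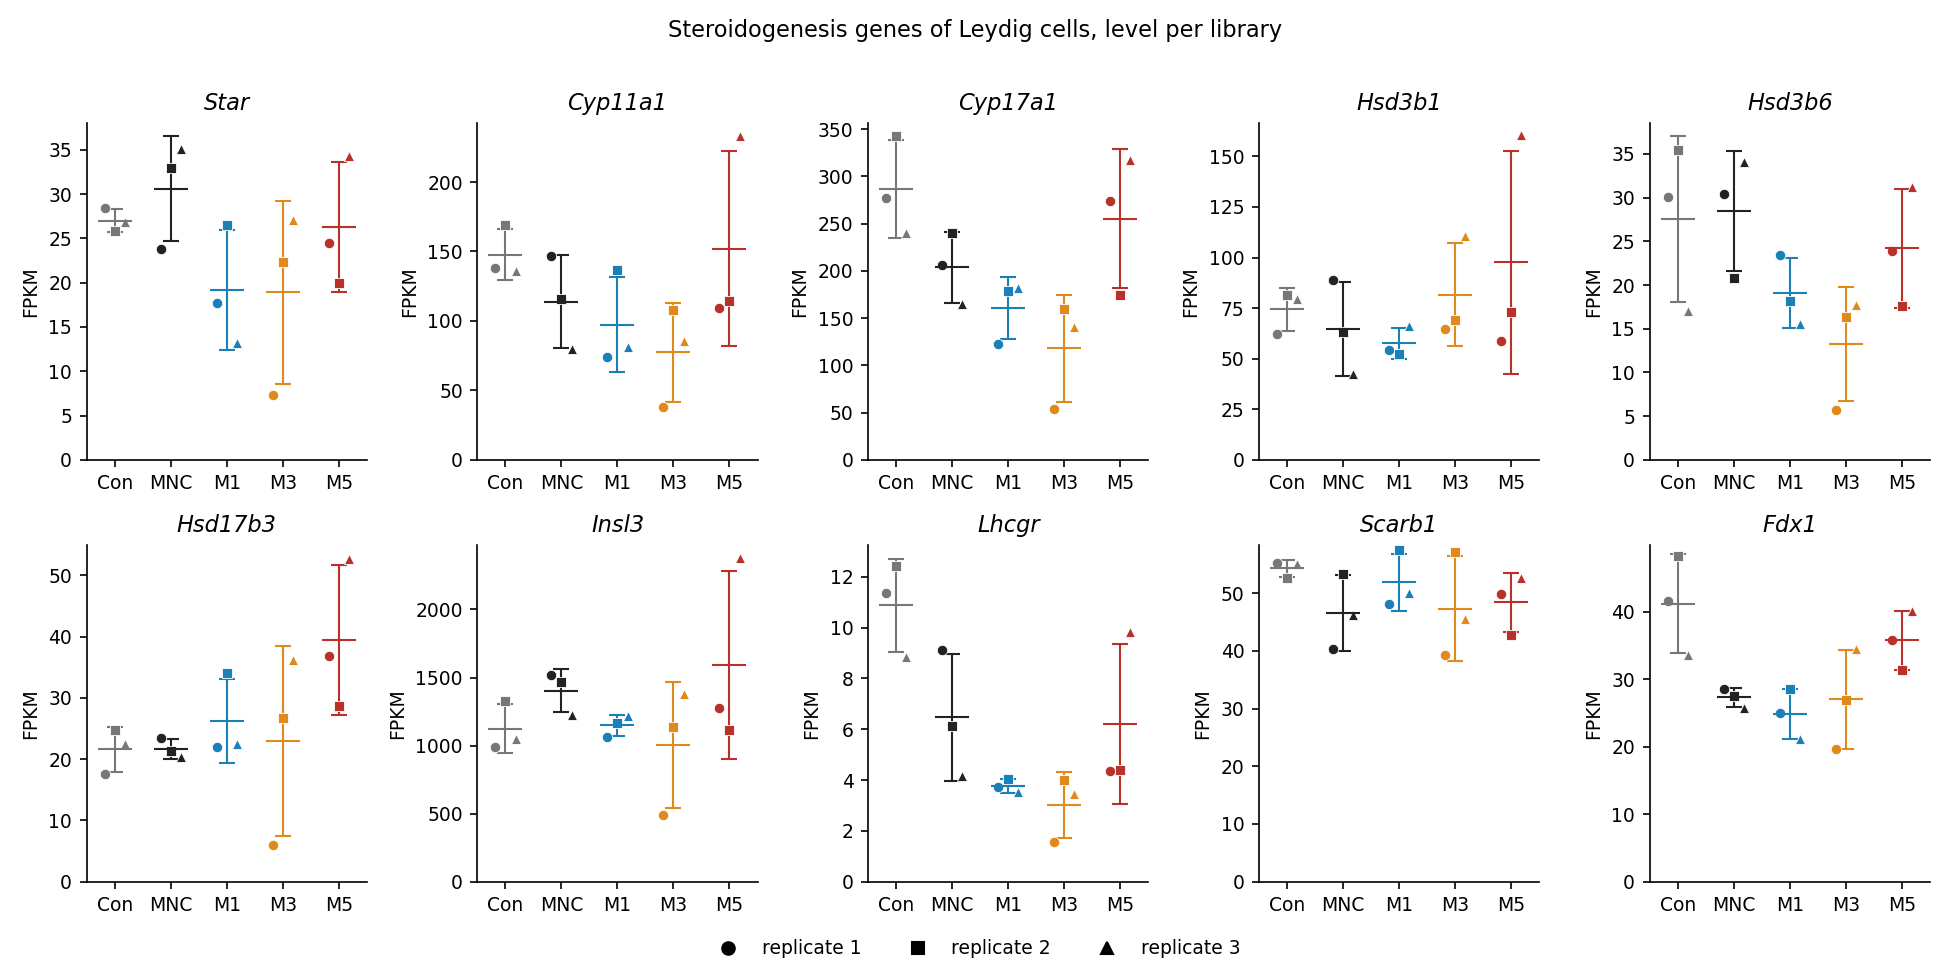
FPKM (y axis, from 0) of the 10 genes in the groups Con, MNC, M1, M3 and M5 (x axis), with each point 1 library, the long horizontal line the mean of 3 and the bars 1 SD. Lhcgr lies at 8.85 FPKM or more in Con and at 4.06 FPKM or less in M1 and M3, and M3 replicate 1 is the lowest library for 9 of the 10 genes.

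The 10 genes lie on 7 chromosomes of GRCm38.p6, the mouse build that the labels call mm10. Lhcgr spans 17:88716384-88792059, Fdx1 9:51943023-51963602, Cyp11a1 9:57998024-58027031 and Cyp17a1 19:46667165-46673000. Hsd3b6 (3:98805504-98814443) and Hsd3b1 (3:98842356-98859794) are neighbours on chromosome 3. Hsd17b3 lies at 13:64058274-64089262, Scarb1 at 5:125277087-125341094, Star at 8:25808474-25815982 and Insl3 at 8:71689252-71690577. The span of Insl3 falls inside that of Jak3 in GENCODE M21, on the same strand, so reads of these loci could be assigned to either gene. Jak3 ranged from 1.93 to 5.09 FPKM, far under Insl3.

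Lhcgr and Fdx1 are the genes with the clearest differences in these libraries, so the bases just before their RefSeq gene models are shown, 5′ to 3′ on the gene's strand (both lie on the minus strand). The Lhcgr stretch is chr17:88792060-88792264 and the Fdx1 stretch is chr9:51963603-51963852, in GRCm38.p6. Capitals mark the letters AGGTCA, a motif of nuclear receptors, which lie 77 to 72 bases before the Lhcgr gene model.
Lhcgr: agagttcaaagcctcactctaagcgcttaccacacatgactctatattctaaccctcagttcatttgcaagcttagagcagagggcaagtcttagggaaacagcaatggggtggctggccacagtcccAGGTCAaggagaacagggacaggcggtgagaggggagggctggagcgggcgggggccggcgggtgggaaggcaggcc
Fdx1: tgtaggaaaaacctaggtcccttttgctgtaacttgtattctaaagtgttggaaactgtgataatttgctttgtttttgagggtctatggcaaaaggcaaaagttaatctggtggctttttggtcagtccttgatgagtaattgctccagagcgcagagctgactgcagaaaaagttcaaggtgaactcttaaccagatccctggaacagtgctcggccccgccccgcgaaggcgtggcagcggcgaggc
RefSeq windows were matched for 7 of the 10 genes (8 windows), and those of Star, Cyp17a1 and Scarb1 were not used here. The letters CAAGGNCA, a form of the site of the steroidogenic factor NR5A1, were in 5.53% of 32851 windows of 250 bases and in 0 of the 8 windows of these genes, on either strand. The shorter AGGTCA was in 14.0% of all windows and, among these genes, before Lhcgr and in an internal Cyp11a1 window. The overlapping form AAGGTC was in 10.6% of all windows and lay at 136 to 131 and at 90 to 85 bases before Insl3. The shorter forms were searched after the longer one had given no match, and a match is a description of letters only.

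Hsd3b1 and Hsd3b6 are close copies, which bears on how reads were divided between them. Their coding sequences of 1122 bases were 90.0% identical in GENCODE M21, with a longest identical run of 72 bases. The first 90 coding bases are shown with the 12 bases that differ in capitals.
Hsd3b1: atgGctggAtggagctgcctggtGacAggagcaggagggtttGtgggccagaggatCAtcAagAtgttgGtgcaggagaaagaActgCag
Hsd3b6: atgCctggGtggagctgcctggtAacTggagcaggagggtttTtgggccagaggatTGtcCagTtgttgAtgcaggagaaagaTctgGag
The values of each are therefore uncertain to the extent that reads from shared stretches were assigned to the other copy.

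The libraries were close in size. The relative depth, estimated from the smallest steps between values of low genes, was 0.942 to 1.045 over the 15 libraries, and the number of reads itself is not known. The targeted receptors could not check the labels, because Chrm1 lay at 0.06 to 0.17 FPKM, Chrm3 at 0.01 to 0.11 FPKM and Chrm5 at 0.19 to 0.43 FPKM over all libraries. Chrm1 averaged 0.113 FPKM in M1 and 0.107 in MNC, and Chrm3 0.0767 FPKM in M3 and 0.0367 in MNC. Chrm5 averaged 0.320 FPKM in M5 and 0.363 in MNC, so a knockdown was not visible in RNA at this depth. For M5, the study reported less receptor protein in injected testes by immunofluorescence staining and Western blotting. M3 replicate 1 and M5 replicate 3 stood apart. M3 replicate 1 was the lowest library for 9 of the 10 genes against 14.1% of all tested genes, and M5 replicate 3 was the highest for 4 of the 10 against 26.4% of all tested genes. The summed level of the 10 genes was 724 FPKM in M3 replicate 1, 3314 FPKM in M5 replicate 3 and 1453 to 2120 FPKM in the other 13. In bulk RNA, fewer Leydig cells and less RNA per Leydig cell cannot be told apart.

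Lhcgr, the receptor for luteinizing hormone, was at 11.4, 12.4 and 8.85 FPKM in Con and at 9.13, 6.14 and 4.15 FPKM in MNC. It was at 3.71, 4.06 and 3.54 FPKM in M1, at 1.57, 4.02 and 3.47 FPKM in M3 and at 4.36, 4.41 and 9.83 FPKM in M5. Con was high, M1 and M3 were low, and MNC and M5 were spread between them, each with 1 library inside the range of Con. The group means were 10.9 ± 1.83 FPKM in Con, 6.47 ± 2.51 in MNC, 3.77 ± 0.265 in M1, 3.02 ± 1.29 in M3 and 6.20 ± 3.14 in M5 (SD, n = 3 each).

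Scarb1, the lipoprotein receptor that supplies cholesterol, varied least of the 10 genes. It ranged from 39.3 FPKM in M3 replicate 1 to 57.5 FPKM in M1 replicate 2, a fold of 1.46. Star, the carrier of cholesterol into mitochondria, was at 28.4, 25.8 and 26.8 FPKM in Con and at 23.9, 33.0 and 35.1 FPKM in MNC. Star was at 17.8, 26.5 and 13.2 FPKM in M1, at 7.28, 22.3 and 27.1 FPKM in M3 and at 24.5, 20.0 and 34.3 FPKM in M5. The 5 groups overlapped in Star, and its low values were M3 replicate 1 and 2 of the 3 M1 libraries.

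Cyp11a1, the enzyme of the first step, was at 138, 169 and 136 FPKM in Con and at 147, 116 and 79.7 FPKM in MNC. It was at 74.0, 136 and 81.5 FPKM in M1, at 38.2, 108 and 85.6 FPKM in M3 and at 109, 114 and 233 FPKM in M5. M5 replicate 3 was the highest library and M3 replicate 1 the lowest. Fdx1, its electron donor, was at 41.7, 48.3 and 33.7 FPKM in Con and at 28.6, 27.6 and 25.7 FPKM in MNC. Fdx1 was at 24.9, 28.6 and 21.1 FPKM in M1, at 19.7, 26.9 and 34.5 FPKM in M3 and at 35.8, 31.4 and 40.2 FPKM in M5. Every Con library was above every MNC and M1 library for Fdx1, and every M5 library was also above every MNC and M1 library.

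Cyp17a1, which makes androgen precursors, was at 277, 342 and 240.1 FPKM in Con and at 206, 240.2 and 165 FPKM in MNC. It was at 122, 178 and 181 FPKM in M1, at 53.7, 159 and 140.3 FPKM in M3 and at 273, 174 and 317 FPKM in M5. M1 and M3 lay below Con in every library. Hsd17b3, which makes testosterone in the last step, was at 17.6, 24.8 and 22.5 FPKM in Con and at 23.4, 21.4 and 20.3 FPKM in MNC. Hsd17b3 was at 22.0, 34.1 and 22.4 FPKM in M1, at 5.96, 26.7 and 36.3 FPKM in M3 and at 36.9, 28.7 and 52.7 FPKM in M5. The 3 M5 libraries lay above every Con and MNC library.

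Of the paralogous enzymes that form the steroid ring ketone, Hsd3b1 ranged from 42.2 FPKM in MNC replicate 3 to 161 FPKM in M5 replicate 3, and its 5 groups overlapped. Hsd3b1 is the 1 gene of the 10 that was not at its lowest in M3 replicate 1, where it was at 64.9 FPKM. Hsd3b6, the form known from adult Leydig cells, ranged from 5.75 FPKM in M3 replicate 1 to 35.5 FPKM in Con replicate 2. Insl3 was at 993, 1328 and 1052 FPKM in Con and at 1519, 1470 and 1224 FPKM in MNC. It was at 1062, 1163 and 1219 FPKM in M1, at 488, 1140 and 1383 FPKM in M3 and at 1275, 1117 and 2382 FPKM in M5. Outside M3 replicate 1 and M5 replicate 3, Insl3 differed by at most 1.53-fold between libraries, the smallest fold among the 10 genes after that of Scarb1 (1.43).

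The first question of the design is whether knockdown of each receptor changed these genes relative to the vector control. Differences are given as log2 of (FPKM + 1), with the standard error of limma's moderated fit and p-values adjusted over all 14514 genes. In M5 against MNC, 0 of the 10 genes were called at an adjusted p under 0.05, where 5.65% of all genes were, and 2 of the 10 had an unadjusted p under 0.05 against 24.9% of all genes. Those were Hsd17b3 and Fdx1, which are also the 2 of the 10 whose M5 and MNC libraries did not overlap (32.1% of all genes did not overlap). Hsd17b3 averaged 39.4 ± 12.2 FPKM in M5 and 21.7 ± 1.61 FPKM in MNC, a log2 difference of 0.79 (SE 0.21, 95% interval 0.30 to 1.28) with an adjusted p of 0.0751. Fdx1 averaged 35.8 ± 4.40 FPKM in M5 and 27.3 ± 1.46 FPKM in MNC, a log2 difference of 0.37 (SE 0.10, interval 0.13 to 0.61) with an adjusted p of 0.0807. Without M5 replicate 3 the difference of Hsd17b3 was 0.57 (adjusted p = 0.0592) and that of Fdx1 was 0.29 (adjusted p = 0.0998). The median difference over the 10 genes was 0.20, beside 0.03 over all genes. It was 0.0056 without M5 replicate 3 (5 genes above 0 and 5 below), 0.09 without MNC replicate 3 and 0.39 without M5 replicate 2.

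In M1 against MNC, limma called 0 of the 10 genes and 0.0% of all genes. An unadjusted p under 0.05 was reached by 4 of the 10 genes and by 5.94% of all genes, and each of the 4 had an adjusted p of 0.819. They were Star with a log2 difference of -0.69, Lhcgr with -0.59, Hsd3b6 with -0.55 and Insl3 with -0.29. The M1 and MNC libraries did not overlap for Lhcgr and Insl3, 2 of the 10 genes, where 12.0% of all genes did not overlap. The interval for Star ran from -1.32 to -0.05. The median of the 10 genes was -0.26, beside -0.02 over all genes, and it was -0.15 without M1 replicate 1, -0.17 without MNC replicate 1 and -0.39 without MNC replicate 3.

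In M3 against MNC, 0 of the 10 genes were called by limma, where 1 gene of the table (0.00689%) was. An unadjusted p under 0.05 was reached by 2 of the 10 genes, Hsd3b6 at -1.15 (interval -2.13 to -0.17) and Lhcgr at -0.90, each with an adjusted p of 0.518, against 9.43% of all genes. The groups did not overlap for Cyp17a1, Hsd3b6 and Lhcgr, where 17.1% of all genes did not. M3 replicate 1 enlarged these differences. Without it, the log2 difference was -0.68 for Hsd3b6, -0.60 for Lhcgr and -0.43 for Cyp17a1, against -0.91 for Cyp17a1 with it, and the median over the 10 genes went from -0.62 to -0.18. The 2 remaining M3 libraries had Hsd17b3 at 0.50 above MNC on the log2 scale, where the 3 together had a wide spread (23.0 ± 15.5 FPKM).

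**Figure D2:**
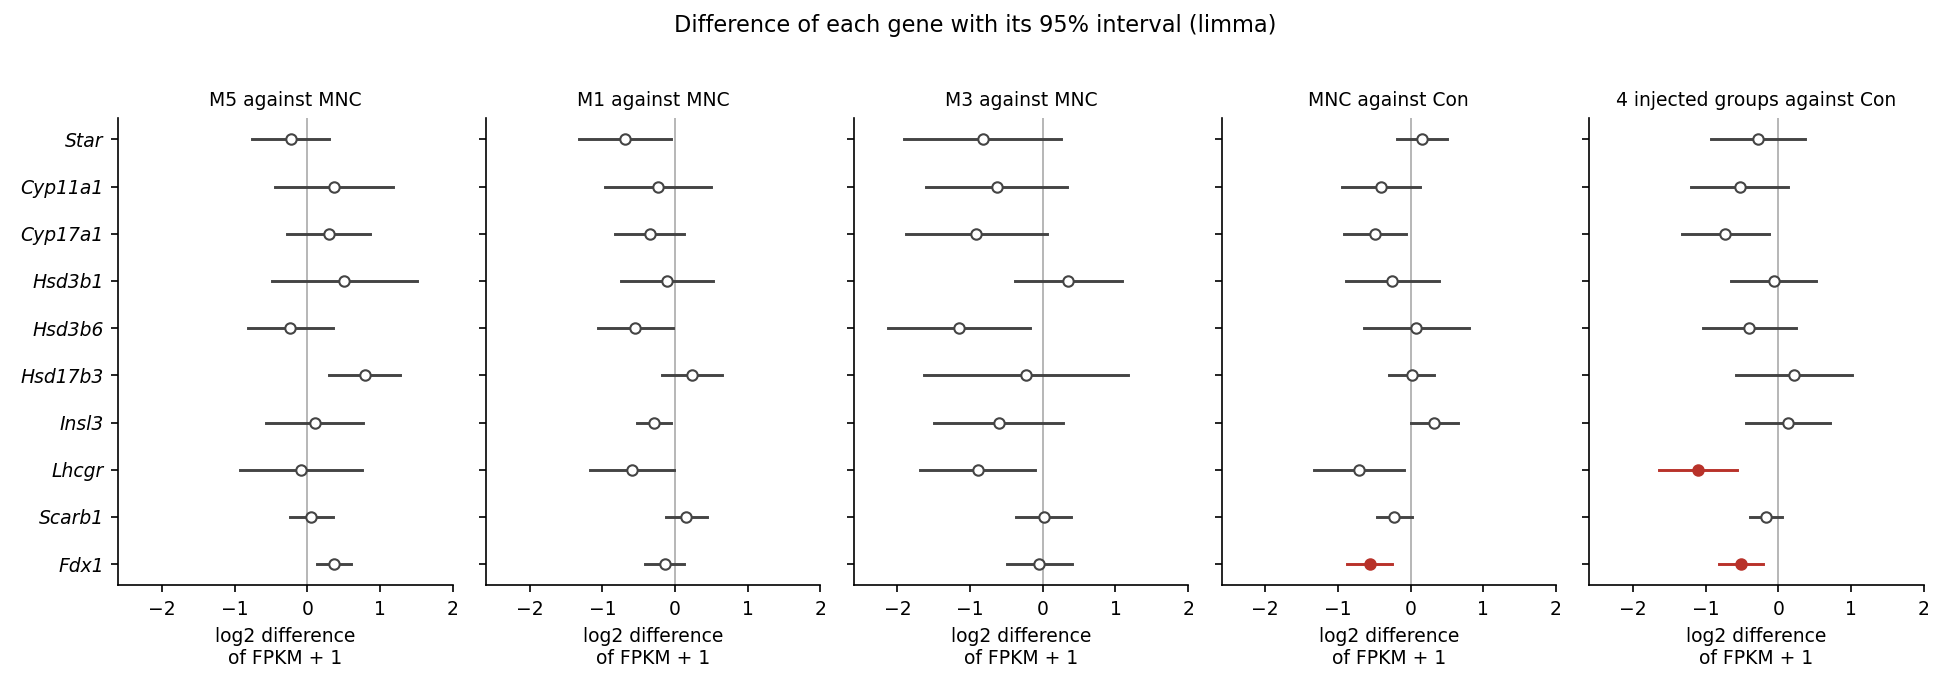
Differences of the 10 genes (rows) on the scale log2 of FPKM + 1 (x axis), with lines for the 95% intervals, in M5, M1 and M3 against MNC, MNC against Con and the 4 injected groups against Con; red filled points have an adjusted p under 0.05. Filled points appear for Fdx1 in MNC against Con and for Lhcgr and Fdx1 in the injected groups against Con.

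The second question is whether the knockdown groups differed from each other. In M5 against M1, 0 of the 10 genes were called by limma, where 6.75% of all genes were, and 2 of the 10 had an unadjusted p under 0.05 against 25.4% of all genes. The libraries did not overlap for Fdx1 (log2 difference 0.51, adjusted p = 0.0691) and Lhcgr (0.51, adjusted p = 0.299), 2 of the 10 genes, where 33.7% of all genes did not overlap. Among genes with a mean of at least 5 FPKM, Fdx1 passed with an adjusted p of 0.0493, where 13.6% of those genes were called. Without M5 replicate 3 the difference was 0.43 for Fdx1 and 0.18 for Lhcgr.

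In M5 against M3, 10 of the 10 genes had a log2 difference above 0, where 61.3% of all genes did, but 0 of the 10 were called by limma (0.0138% of all genes were) and 1 of the 10 had an unadjusted p under 0.05 against 14.3% of all genes. Cyp17a1 had a difference of 1.21 (interval 0.19 to 2.23, adjusted p = 0.338), Cyp11a1 of 1.00 and Lhcgr of 0.82, and the M5 and M3 libraries of these 3 genes did not overlap (22.9% of all genes did not overlap). The median over the 10 genes was 0.76, beside 0.06 over all genes. It was 0.27 without M3 replicate 1, 0.44 without M5 replicate 3 and 0.10 without both, where 6 of the 10 genes were above 0 and 4 below. With each library centred on its median, 9 of the 10 genes were above 0.

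The third question is how the vector control and the injected groups stood against Con. In MNC against Con, 1 of the 10 genes was called, where 20.4% of all genes were, and 4 of the 10 had an unadjusted p under 0.05 against 40.1% of all genes. Fdx1 fell from 41.2 ± 7.34 FPKM in Con to 27.3 ± 1.46 FPKM in MNC, a log2 difference of -0.56 (SE 0.13, interval -0.87 to -0.25) with an adjusted p of 0.0340. It was the 1 gene of the 10 whose MNC and Con libraries did not overlap, where 46.5% of all genes did not. Lhcgr had a difference of -0.71 (adjusted p = 0.0900), Cyp17a1 of -0.49 (adjusted p = 0.0903) and Insl3 of 0.33 (adjusted p = 0.123). Fdx1 was no longer called without Con replicate 1, Con replicate 2, MNC replicate 2 or MNC replicate 3. The share of all genes called fell as well, to 0.0551%, 1.34%, 4.4% and 7.11% in that order. Without MNC replicate 1 the called genes were Star (0.32) and Lhcgr (-0.96), where 17.2% of all genes were called.

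Over the 4 injected groups together against Con, 2 of the 10 genes were called, where 34.2% of all genes were. Lhcgr fell from 10.9 ± 1.83 FPKM in Con to 4.87 ± 2.39 FPKM in the 12 injected libraries, a log2 difference of -1.10 (SE 0.25, interval -1.64 to -0.57) with an adjusted p of 0.00522. Fdx1 fell from 41.2 ± 7.34 to 28.7 ± 5.94 FPKM, a log2 difference of -0.52 (SE 0.14, interval -0.82 to -0.21) with an adjusted p of 0.0150. Cyp17a1 was at 286 ± 51.7 FPKM in Con and 184 ± 69.6 FPKM in the injected libraries, a log2 difference of -0.73 (SE 0.28) with an adjusted p of 0.0576. The injected and Con libraries overlapped for all 10 genes, where 17.8% of all genes did not overlap. Without M3 replicate 1 and M5 replicate 3, the differences were -1.12 for Lhcgr (adjusted p = 0.000876), -0.49 for Fdx1 (adjusted p = 0.00777) and -0.66 for Cyp17a1 (adjusted p = 0.0123). Cyp17a1 was then called as well, where the share of all genes called rose to 43.3%. Those libraries were left out after their values for these genes were seen, so that call is a description only. Hsd3b1 (-0.06), Insl3 and Hsd17b3 were not called, and Hsd3b1 was the 1 gene of the 10 that changed sign when each library was centred on its median.

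The moderated F test over all 5 groups called 3 of the 10 genes, where 33.6% of all genes were called. They were Lhcgr (F = 7.81, adjusted p = 0.0143), Fdx1 (F = 5.61, adjusted p = 0.0316) and Cyp17a1 (F = 5.04, adjusted p = 0.0399). Set against Con in place of MNC, M1 was lower in Lhcgr (-1.31, adjusted p = 0.00643), Cyp17a1 (-0.84, adjusted p = 0.0210) and Fdx1 (-0.70, adjusted p = 0.0201), where 34.2% of all genes were called. M3 was lower than Con in Lhcgr (-1.61, adjusted p = 0.0259) and Cyp17a1 (-1.40, adjusted p = 0.0481), where 22.1% of all genes were called. M5 was higher than Con in Hsd17b3 (0.81, adjusted p = 0.0471), where 21.7% of all genes were called. These comparisons share the 3 Con libraries, so they are not independent of each other.

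The scaling moved many calls against Con. The median difference of all genes was -0.10 in the injected groups against Con, and 34.6% of the genes called were higher. With each library centred on its median, the median of all genes was 0.0061 and 70.4% of the called genes were higher, while Lhcgr (-1.0, adjusted p = 0.00626) and Fdx1 (-0.41, adjusted p = 0.0360) were still called as lower. In MNC against Con the share of higher calls went from 39.3% to 77.5% with the same centring, and Fdx1 was still called (-0.47, adjusted p = 0.0428). In the F test over all 5 groups, centring left Lhcgr called but not Fdx1 (adjusted p = 0.0570) or Cyp17a1 (adjusted p = 0.0599). The median of the 10 genes in the injected groups against Con was -0.34, and it was -0.23 after centring and -0.21 without M3 replicate 1. Injection, virus and any difference in age or collection cannot be told apart in these comparisons.

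Some markers of other cells differed between the same groups. In the injected groups against Con, 34.2% of all genes were called. Of the markers, 3 of 5 peritubular myoid, 2 of 10 Sertoli cell, 1 of 7 macrophage and 0 of 5 endothelial genes were called there. The summed level of the interferon response genes was 18.7 to 19.9 FPKM in Con and 22.7 to 106 FPKM in the injected libraries. In MNC against Con, 7 of the 7 that passed the filter were called as higher (0 to 7 over the alternatives), where 20.4% of all genes were called. The summed level of 9 germ cell genes, most of it from Prm1, Prm2 and Tnp1 of late spermatids, was 7136 to 14473 FPKM in Con and 14945 to 24220 FPKM in the injected libraries. Over the 9 genes the median offset from Con stayed between -0.16 and 0.06 in every library. Spo11 (-0.57), Stra8 (-0.31) and Sycp3 (-0.19) of earlier stages fell in the injected groups, of which Spo11 alone was called after centring, while Prm2 (1.27), Prm1 (0.71, reversed with quantile normalization), Tnp1 (0.69) and Acrv1 (0.23) rose. Crisp1, an epididymal gene, was at 2.86 to 32.3 FPKM in Con, at 19.4 FPKM in M3 replicate 1 and at 5.03 FPKM or less in the other libraries. Of 5 adrenal cortex genes, Cyp11b1, Cyp11b2 and Mc2r were at 0.16 FPKM or less in every library, whereas Cyp21a1 was at 0.68 to 9.58 FPKM and Akr1b7 at 1.62 to 3.11 FPKM, and the sum of the 5 was highest in M1 replicate 2. The summed level of 5 red blood cell genes was 148 to 491 FPKM in M5 and 21.8 to 35.3 FPKM in MNC, and macrophage genes summed to 67.2 to 297 FPKM over the 15 libraries, highest in M5 replicate 3. The part of any of these in the results for the 10 genes was not tested.

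**Figure D3:**
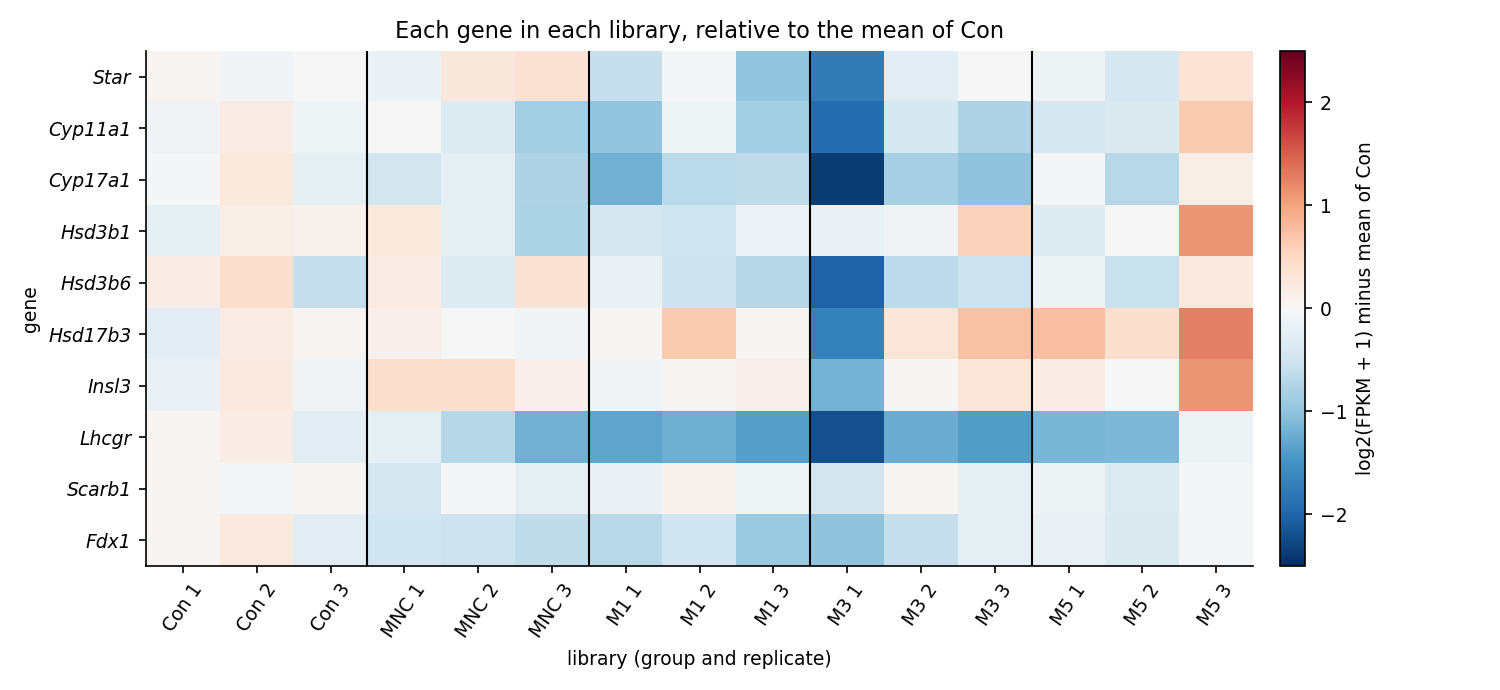
Colour gives log2 of FPKM + 1 minus the mean of Con for each of the 10 genes (rows) in each of the 15 libraries (columns), blue below 0 and red above. The column of M3 replicate 1 has a median of -1.72 and that of M5 replicate 3 a median of 0.29, and the row of Lhcgr is below 0 in all 12 injected libraries.

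The other genes of the pathway were set in lists by role and were tested with all genes. The RNA was from whole testes, so a change in a listed gene cannot be assigned to Leydig cells. In M5 against MNC, 2 of 20 genes of luteinizing hormone receptor signalling were called as lower (0 to 5 were called over the alternatives), where 5.65% of all genes were called. They were Prkaca (-0.42, adjusted p = 0.0163), the catalytic subunit of protein kinase A, and Pde4a (-0.35, adjusted p = 0.0491), which breaks down cyclic AMP. Prkaca was at 46.5, 45.9 and 44.3 FPKM in M5, at 61.4, 60.2 and 61.9 FPKM in MNC and at 47.1 FPKM in M3 replicate 3. Of 12 transcription factors of Leydig cells that passed the filter, 1 was called as lower, Nr4a1 (-0.73, adjusted p = 0.0341), an early response gene of luteinizing hormone. Nr4a1 was at 12.8 to 13.8 FPKM in M5, at 18.5 to 26.4 FPKM in MNC and at 13.9 FPKM in M3 replicate 3, so M3 replicate 3 lay with M5 for both Prkaca and Nr4a1. In M5 against M1, which shares the M5 libraries, Prkaca had a difference of -0.37 (adjusted p = 0.0140) and Nr4a1 of -0.57 (adjusted p = 0.0121). With each library centred, Nr4a1 was still called in M5 against M1 (-0.64), and no pathway gene was called in M5 against MNC.

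None of the remaining lists had a called gene in M5 against MNC, and no pathway list had one in M1 against MNC, M3 against MNC or M5 against M3 by limma. Those lists were the other enzymes and carriers of steroid synthesis (22 genes passed the filter), cholesterol uptake and storage (10), growth factor receptors and the hedgehog pathway (12), receptors and targets of testosterone and INSL3 (9) and other Leydig cell markers (16). Their medians in M5 against MNC were 0.05, 0.15, 0.06, 0.14 and 0.14 in that order, and that of the 20 signalling genes was 0.05. The medians of the same lists in M3 against MNC ran from -0.06 to -0.25.

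In the injected groups against Con, the lists had calls in both directions, and the calls of small size turned on the scaling. The share of all genes called was 34.2%, and 22.5% after centring, against which each count here is to be read. Among 20 signalling genes, 3 rose and 4 fell, a share near that of all genes, and with each library centred 5 rose and 0 fell. Prkar2a, a regulatory subunit of protein kinase A, rose by 0.83 (adjusted p = 0.000916), Akap1, an anchor of that kinase at mitochondria, by 0.32, and Pde4a by 0.26, and these 3 rose after centring too. Of the 22 other enzymes and carriers, 1 rose and 3 fell, and 2 rose and 0 fell after centring. Stard6, a cholesterol carrier abundant in germ cells, rose by 0.53 (adjusted p = 0.000894), from a mean of 245 FPKM in Con to means of 337 FPKM (MNC) to 369.6 FPKM (M3). In MNC against Con, 5 of these 22 genes were called (0 to 5 over the alternatives), where 20.4% of all genes were. Cyb5a, the partner of CYP17A1, fell there by 0.31 on the log2 scale (-0.22 after centring, adjusted p = 0.0476). Tspo, a protein of the outer mitochondrial membrane, rose there by 0.50 (0.59 after centring, adjusted p = 0.0263). In M5 against Con, neither was called, with Cyb5a at 0.05 (adjusted p = 0.820) and Tspo at 0.57 (adjusted p = 0.112).

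Among the 10 genes of cholesterol handling, 2 rose in the injected groups against Con under either scaling, Lipe (0.60), the hormone-sensitive lipase that frees cholesterol from its esters, and Plin2 (0.24), a lipid droplet coat protein. Of 12 genes of growth factor receptors and hedgehog signalling, 3 fell, Pdgfra (-0.50), Pdgfa (-0.45) and Dhh (-0.33), and Pdgfa alone was called after centring. Of 12 transcription factors, Nr0b1, a repressor of steroidogenic genes, fell (-0.32). After centring Nr0b1 was not called, and Gata6 (0.29) and Nr1h3 (0.34) were called as higher. Of 9 receptors and targets of testosterone and INSL3, Cldn3 rose (0.61) and Drd4 (-0.73) and Tubb3 (-0.45) fell, of which Cldn3 and Drd4 were called after centring too.

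Of 16 other Leydig cell markers, 2 were called in the injected groups against Con, in opposite directions and under either scaling. Ptgds, a prostaglandin D synthase, was at 28.6, 27.4 and 28.0 FPKM in Con and at 43.6 to 140.3 FPKM in the 12 injected libraries, a log2 difference of 1.38 (adjusted p = 0.000971). Inha, the inhibin alpha subunit that Sertoli cells make as well, was at 101, 103 and 85.5 FPKM in Con and at 34.3 to 65.9 FPKM in the injected libraries, a log2 difference of -0.98 (adjusted p = 0.00116). The libraries of Con and the injected groups did not overlap for either gene. The median of the 16 markers was -0.30, against -0.34 for the 10 genes.

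**Figure D4:**
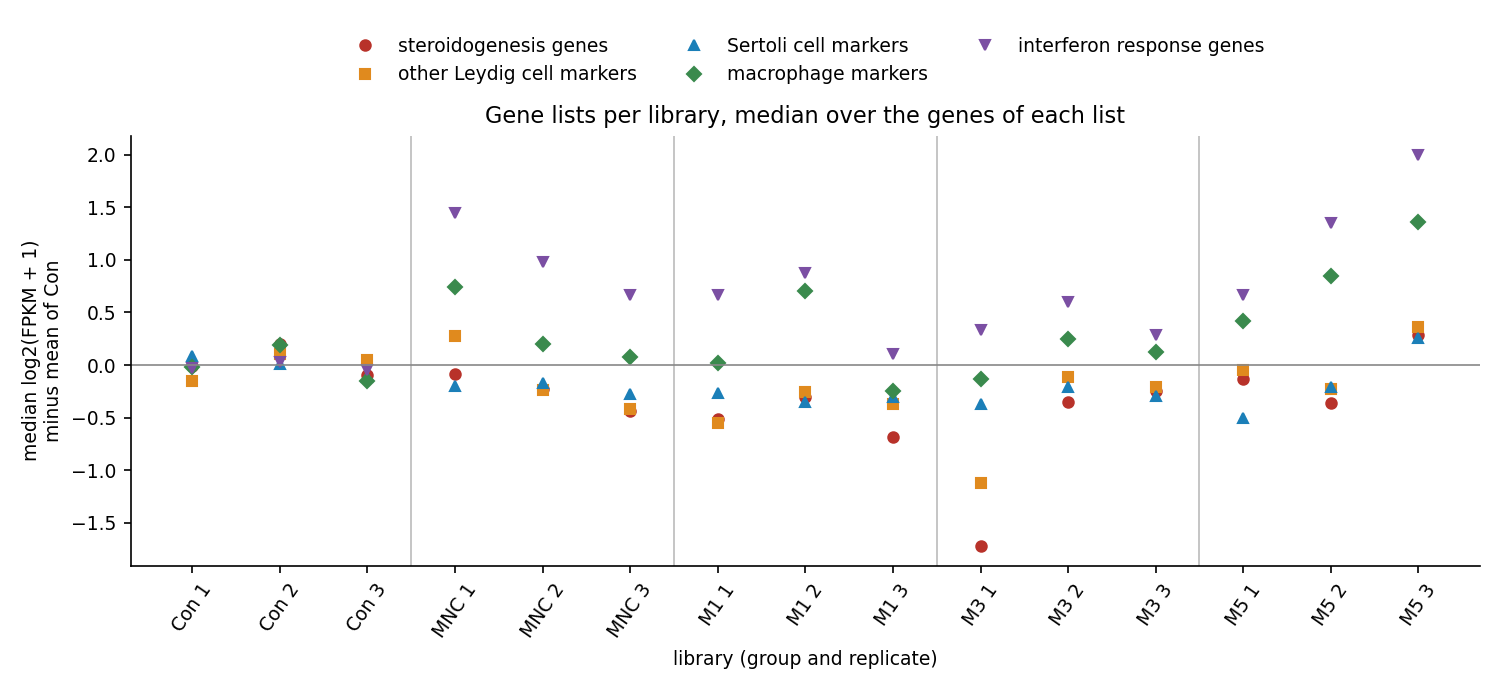
Median over the genes of a list of log2 of FPKM + 1 minus the mean of Con (y axis) in each of the 15 libraries (x axis), for the 10 genes, the other Leydig cell markers, Sertoli cell and macrophage markers and interferon response genes. In M3 replicate 1 the median is -1.72 for the 10 genes, -1.12 for the other Leydig cell markers and -0.37 for Sertoli cell genes.

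The low values of M3 replicate 1 extended to the other Leydig cell markers, and the other lists of Leydig cell genes were less far below Con. Its median offset from Con was -0.15 over all genes tested, -1.12 for the 16 other Leydig cell markers, of which 11 were at their lowest there, and -1.72 for the 10 genes. For 10 Sertoli cell genes the median offset was -0.37 and 1 of them was at its lowest there. Some other lists were low there too. The median offset was -1.23 for 4 adipocyte genes (2 at their lowest) and -0.56 for 12 growth factor and hedgehog genes (6 at their lowest). For 7 macrophage genes it was -0.13, near that of all genes, although 4 of them were at their lowest there. The 12 transcription factors of Leydig cells had a median offset of -0.22, with 3 (25.0%) at their lowest there. That of the 20 signalling genes was -0.19, with 8 (40.0%) at their lowest, where 14.1% of all genes tested were. Both medians lay near that of all genes, while both shares were above that of all genes. Klk1b21, a kallikrein of Leydig cells, was at 0.29 FPKM in M3 replicate 1 and at up to 41.6 FPKM in MNC replicate 1. Outside M3 replicate 1, the median offset of the 10 genes was lowest in M1 replicate 3 (-0.68) and M1 replicate 1 (-0.51).

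The 10 genes were compared with each other over the 15 libraries on the log2 scale, as a description, since the libraries share groups and scaling. The 45 pairs had a median Pearson r of 0.641, from -0.050 for Hsd3b1 with Scarb1 to 0.895 for Cyp11a1 with Cyp17a1, and 31 pairs were above 0.5. With group means removed the median was 0.719. Without M3 replicate 1 and M5 replicate 3 it was 0.257, with 7 pairs above 0.5 and 12 below 0, so much of the shared variation lay in those libraries. Cyp11a1, Cyp17a1 and Lhcgr stayed close to each other without them, with r of 0.756 for Cyp11a1 with Cyp17a1, 0.809 for Cyp11a1 with Lhcgr and 0.788 for Cyp17a1 with Lhcgr. Hsd17b3 with Insl3 went from 0.862 to 0.257. Against the mean of the other 9 genes, Cyp11a1 had the highest r (0.934) and Hsd3b1 the lowest (0.377).

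**Figure D5:**
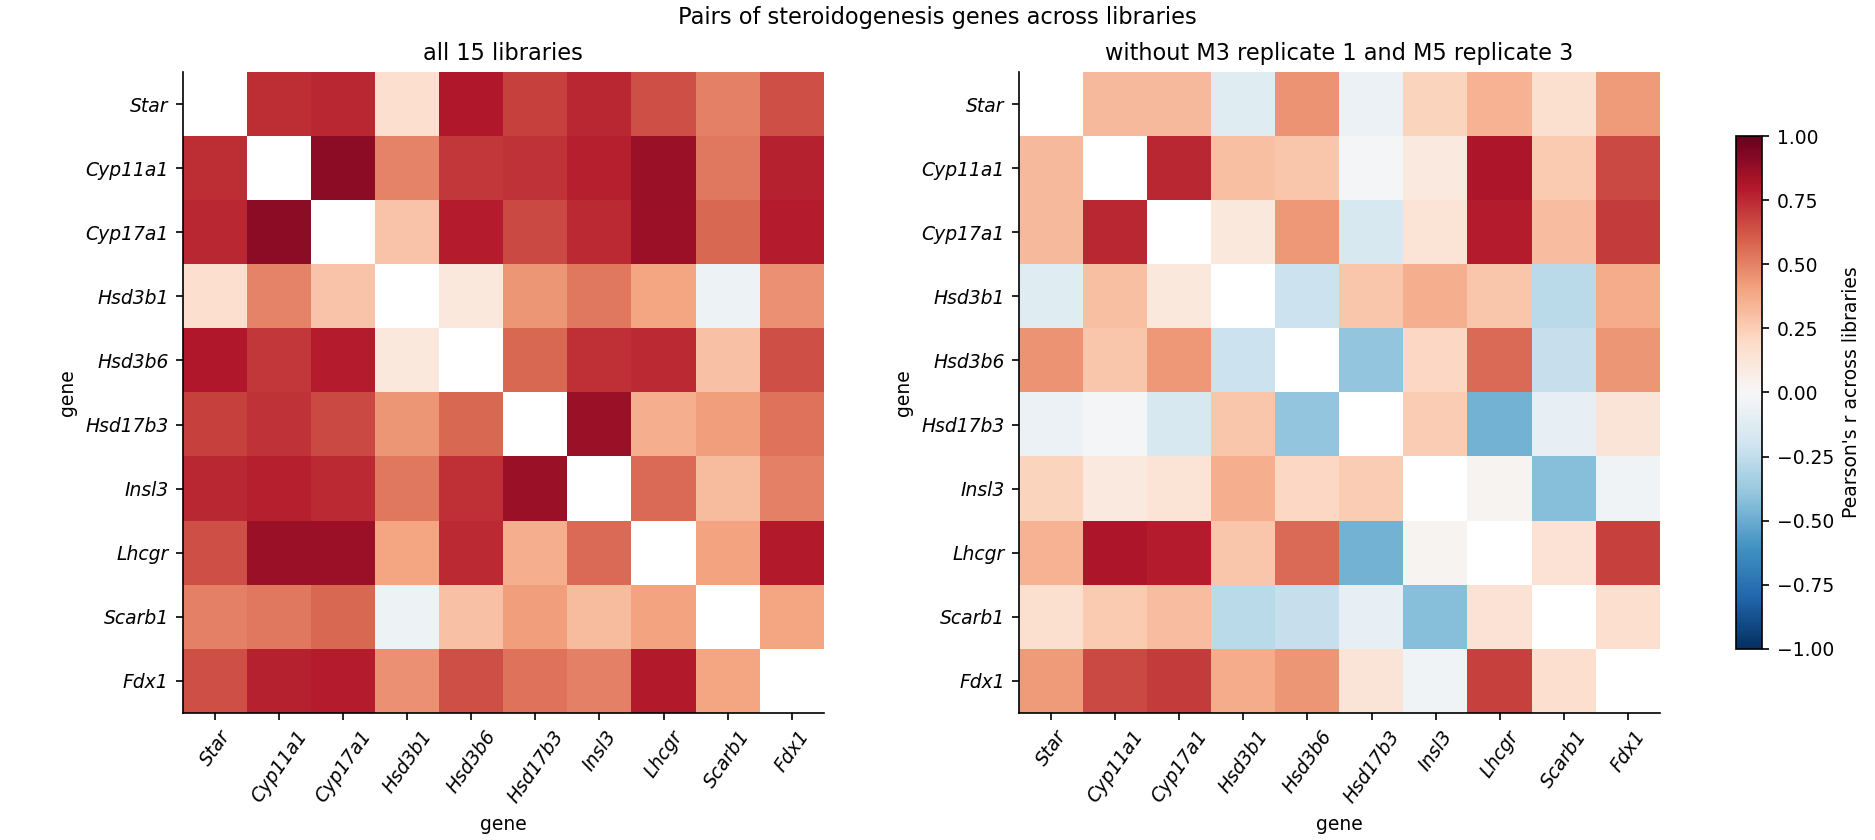
Pearson's r (colour, from -1 in blue to 1 in red) between each pair of the 10 genes, over all 15 libraries on the left and without M3 replicate 1 and M5 replicate 3 on the right. Cyp11a1 with Lhcgr is dark on both sides (0.862 and 0.809), whereas Hsd17b3 with Insl3 is dark on the left only (0.862 and 0.257).

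Genes whose pattern over the 15 libraries was much like the mean pattern of the 10, among the other 14504 tested, were Tmem35a (r = 0.974), Pgrmc1 (0.966), Mdh1 (0.957), Elovl5 (0.953) and Cxcl12 (0.950), with Sfxn1, Prdx3, Fads2 and Sdc1 at 0.943 to 0.934. Pgrmc1 encodes a haem-binding partner of cytochrome P450 enzymes, Elovl5 and Fads2 enzymes of polyunsaturated fatty acid synthesis and Prdx3 a mitochondrial peroxidase. Without M3 replicate 1 and M5 replicate 3, r was 0.877 for Tmem35a and 0.899 for Pgrmc1.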

How the data were processed

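The authors extracted RNA from testes with TRIzol, sequenced it on an Illumina HiSeq and aligned reads with SOAPaligner 2.20. The deposited table holds FPKM values with 2 decimals for 23510 gene IDs in 15 libraries, on mouse build mm10 per the labels, and the annotation is not given in the sources used here. Entrez IDs were matched to RefSeq GRCm38.p6 (89.9% matched). Two-group fits with limma 3.58.1 (lmFit, eBayes with trend) on log2(FPKM + 1) used the 14514 genes with a mean of at least 1 FPKM. P-values were adjusted over all of them by Benjamini-Hochberg, and genes with an adjusted p under 0.05 were called. The injected groups against Con, and the F test, came from 1 fit of all 5 groups. A difference on this scale understates the change of low genes. Depth is known in relative terms only. Recovery was checked on simulated data with 200 changed genes of 14514 and noise drawn separately for each gene. A log2 change of 1 was recovered for 68% (M5 against MNC) to 96% (injected groups against Con) of changed genes. Shifts shared by the genes of a library were not simulated, so recovery in the real libraries can differ. The text names every one of the 10 genes, the called genes of each list, and genes most like their mean, of which 1 is not reported here. The members and lists were chosen with earlier results of these data known. Replicate numbers did not pair the libraries, and alternatives are given in the closing section.

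The extraction notes of the labels speak of sperm, whereas titles and tissue labels say testis. The description of M5 replicate 2 names another column, so it was matched by its title.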

Additional observations from a re-analysis of the deposited data

How the results depend on the processing

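Among the 10 genes, 1187 of 1250 results of single genes under the alternatives kept their direction, their side of the threshold and, for values not called, moved by less than the spread. These results include genes never called, and they leave out the F test over all 5 groups. Lhcgr in the injected groups against Con was called in 25 of 25 alternatives, with a log2 difference of -1.27 to -1.0. Fdx1 was called in 23 of 25 (adjusted p = 0.0636 without Con replicate 1 and 0.108 without Con replicate 2) and Cyp17a1 in 7 of 25. With Con as the control, 1 gene was called in M5 (21.7% of all genes were), 3 in M1 (34.2%) and 2 in M3 (22.1%). The median in M1 then moved to -0.50. In MNC against Con, 0 genes were called with no filter (7.58% of all genes were), and 0 to 2 when 1 library was left out (0.0551% to 17.2%). At the cut-off values of the study (adjusted p under 0.001 and a log2 difference of at least 1), 0 genes were called in the limma fit. The study put its values on another test, DEGseq, so this does not repeat its calls. In M5 against M1, 1 gene was called with a filter of 5 FPKM, where 13.6% of the genes tested were. In the injected groups against Con, 0 genes were called at the cut-off values of the study, again in the limma fit. Without 1 library 1 to 3 were called (19.0% to 44.6% of all genes were), with 1 left without Con replicate 1 (20.1%) or Con replicate 2 (19.0%). Over all 5 groups, 1 gene was called with no filter (18.4% of all genes were), 1 with each library centred (24.7%) and 0 at an adjusted p under 0.001. Without 1 library 0 to 3 were called (17.3% to 40.2%), with 0 left without Con replicate 1 (17.3%) or Con replicate 2 (18.8%). In that F test Lhcgr was called in 23 of 25 alternatives, Fdx1 in 18 and Cyp17a1 in 11. The median of M5 against M3 ranged from 0.27 to 0.97 when 1 library was left out and was 0.10 without M3 replicate 1 and M5 replicate 3, an alternative chosen after seeing the data, as were those of the lists. Pde4a reversed to 0.0695 with Con as the control of M5, and Prm1, a germ cell gene, to -0.0753 against Con with quantile normalization. The cause of these moves was not tested.

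Same-numbered libraries of different groups deviated together with r from -0.40 to 0.18, so the numbers did not pair them. With the replicate number as a block, 0 of the 10 genes were called in MNC against Con (0.0689% of all genes were), 2 in the injected groups against Con (30.4%) and 1 over all 5 groups (24.5%), and 0 in each other comparison (at most 0.269%).

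Groups of 3 and an unknown number of reads limit the precision. On data simulated as described above, a log2 change of 0.5 was recovered for 0% of changed genes in M3 against MNC and in M5 against M3. It was recovered for 9.5% in M5 against MNC and 66.5% in the injected groups against Con.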

Other observations

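Levels of the 10 genes relative to each other differed between libraries. The ratio of Insl3 to Cyp17a1, in FPKM, was 3.58 to 4.38 in Con and 4.66 to 9.85 in the 12 injected libraries, so the ranges did not overlap. This ratio was picked after its values were seen, so they are given as a description. The ratio of Hsd3b1 to Hsd3b6 ran from 1.24 in MNC replicate 3 to 11.3 in M3 replicate 1, where Hsd3b6 was at its lowest. Insl3 made up 60.0% to 73.4% of the summed FPKM of the 10 genes in each library, and the 10 genes made up 0.145% to 0.668% of the summed FPKM of all genes.

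Nr5a1, the factor that drives many steroidogenic genes, was at 10.4 to 22.9 FPKM over the 15 libraries.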
